A study of Bos taurus with 10 samples.

Results

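The genes described here are 10 regulators of mitosis, taken by name. They are the spindle checkpoint genes BUB1, BUB1B, BUB3, MAD2L1 and TTK, the checkpoint's target CDC20, the cyclin gene CCNB1, and the kinases AURKA, AURKB and PLK1. All 10 were found among the 28781 gene symbols of the deposited expression table. Of these, 9 belonged to the 11761 genes that averaged 1 FPKM or more across the libraries and were tested. FPKM is the number of fragments on a transcript relative to its length and to the library's mapped total, so levels can be compared between genes on this scale. MAD2L1 was listed at 0 in all 10 libraries. The 13 genes of the mitochondrial genome, which every cell transcribes, were also listed at 0 throughout, so the MAD2L1 entries are given only as listed.

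The libraries came from bovine embryos injected as zygotes with small interfering RNA. KD morulae (3 libraries) had received small interfering RNA against H1FOO, and NC morulae (3 libraries) a negative control small interfering RNA, and both were collected 5.5 days after insemination. KD and NC 8/16-cell embryos (2 libraries each) had received the same injections and were collected 4 days after insemination. Every group was therefore injected, and no uninjected embryo was analysed here. Titles of the 8/16-cell libraries say 16-cell, where the stage label says 8/16-cell. An injected small interfering RNA lowers a transcript without deleting its gene, and the labels give neither the number of embryos in a library nor whether replicates were separate collections. Each library is bulk RNA, in which fewer cells of a kind and less RNA per cell cannot be told apart, and a library's values are shares of its total.

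Cells enter mitosis when cyclin B binds and activates CDK1, and leave it when the anaphase-promoting complex, a ubiquitin ligase activated by CDC20, marks cyclin B and securin for destruction. Until every kinetochore is attached to spindle microtubules, TTK and BUB1 recruit BUBR1 (the product of BUB1B), BUB3 and MAD2, which bind CDC20 and hold the complex back. The Aurora kinases and PLK1 build the spindle, correct its attachments and complete division. In the early embryo the first cleavages run on RNA and protein stored in the oocyte, and the bovine embryo takes over its own transcription around the 8/16-cell stage.

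H1FOO, the linker histone of the oocyte, was measured at 0.0610, 0.191 and 0.251 FPKM in KD morulae, against 0.294, 1.05 and 2.17 FPKM in NC morulae. The 8/16-cell values of H1FOO were 0.649 and 0.0736 FPKM in KD embryos, against 50.8 and 10.8 FPKM in NC embryos. The groups did not overlap at either stage, but neither difference passed the threshold over all genes (limma adjusted p 0.374 in morulae and 0.104 at the 8/16-cell stage). Without NC 8/16-cell replicate 2 the target passed at the earlier stage (limma adjusted p 0.00353), with the single NC library left assumed to vary like the other groups. It also passed there when libraries were rescaled to equal sums (log2 difference -4.26, limma adjusted p 0.0381). All 10 markers of embryonic lineages reached 1 FPKM. None of them passed between KD and NC morulae (0 of 10 in limma, 3 at an unadjusted p under 0.05), with 8 negative and 2 positive differences and a median of -0.46 on the log2 scale. Among all tested genes 0.697% passed, 21.2% had an unadjusted p under 0.05 and 57.9% were negative, with a median of -0.08. POU5F1, a pluripotency factor, was at 531, 324 and 277 FPKM in KD morulae and at 673, 449 and 555 FPKM in NC morulae, which overlapped. Transcripts that mark the follicle's somatic cells (cumulus and granulosa) were present too. Their summed level ran from 65.7 to 128.4 FPKM in KD morulae, from 70.4 to 85.6 FPKM in NC morulae, from 160.1 to 161.4 FPKM in KD and from 98.7 to 102.5 FPKM in NC 8/16-cell embryos. SERPINE2 alone made up most of each NC morula sum. It was at 45.9, 23.4 and 35.0 FPKM in KD and at 75.8, 50.1 and 45.0 FPKM in NC morulae. Its log2 difference was -0.71 (limma adjusted p 0.149), while 10 of 13 tested markers of the list had a positive difference in morulae. Of the 18 genes of that list 15 reached 1 FPKM in some library, and FSHR, the receptor of follicle-stimulating hormone, was at 0 in every library. The columns of the 2 stages may come from tables made apart and then merged, because the 81 symbols with several lines were laid out differently in the columns of the stages. Differences between stages carry any difference in how the columns were made.

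Among the checkpoint genes BUB3, which carries BUB1 and BUBR1 to kinetochores, was the most abundant. It was at 109, 121 and 127 FPKM in KD morulae and at 104, 86.2 and 120.0 FPKM in NC morulae. In 8/16-cell embryos it was at 166 and 191 FPKM with KD and at 175 and 153 FPKM with NC. Both libraries of each treatment thus lay above all 6 morula libraries, and KD and NC overlapped at each stage. BUB1, the kinase that starts checkpoint assembly at the kinetochore, was far lower and nearly level. It was at 28.7, 26.6 and 22.8 FPKM in KD morulae, 26.0, 23.2 and 26.6 FPKM in NC morulae, 28.0 and 30.9 FPKM in KD 8/16-cell embryos and 27.6 and 26.9 FPKM in NC 8/16-cell embryos. The lowest and the highest BUB1 value of the 10 libraries both came from KD embryos.

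BUB1B, whose product BUBR1 binds and inhibits CDC20, was at 11.8, 17.3 and 13.3 FPKM in KD morulae, against 25.3, 29.0 and 19.5 FPKM in NC morulae. All 3 KD values lay below all 3 NC values. In 8/16-cell embryos BUB1B was at 21.7 and 15.9 FPKM with KD and at 24.5 and 17.5 FPKM with NC, and the treatments overlapped. TTK, the kinase also called MPS1 that starts checkpoint signalling, was the lowest of the 9 detected genes in every group. It was at 5.51, 5.54 and 3.65 FPKM in KD morulae, against 9.82, 8.14 and 7.29 FPKM in NC morulae, again without overlap. Earlier, in 8/16-cell embryos, TTK was at 9.70 and 10.3 FPKM with KD and at 11.4 and 7.77 FPKM with NC, the NC libraries lying on either side of the KD ones.

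CCNB1, which encodes cyclin B1, was the highest of the 10 genes in all 4 groups. It was at 265, 275 and 259.9 FPKM in KD morulae and at 218, 189 and 274 FPKM in NC morulae, and at 381 and 347 FPKM in KD and 393 and 321 FPKM in NC 8/16-cell embryos. Its group means stood at percentiles 97.7 to 98.6 of all tested genes. CDC20 was at 157, 159 and 136 FPKM in KD morulae and at 170.0, 119 and 164 FPKM in NC morulae. Its 8/16-cell values were 213 and 278 FPKM with KD and 277 and 243 FPKM with NC. For both genes every 8/16-cell library exceeded every morula library, and KD and NC libraries overlapped at each stage.

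Among the kinases AURKA, which matures centrosomes and builds spindle poles, was at 107, 121 and 116 FPKM in KD morulae and at 105.2, 105.3 and 109.6 FPKM in NC morulae. Its 8/16-cell values, 227 and 269 FPKM with KD and 256 and 209.9 FPKM with NC, were all well above those of morulae. AURKB, the kinase of the chromosomal passenger complex that corrects faulty kinetochore attachments, was at 26.5, 27.0 and 31.9 FPKM in KD morulae and 24.1, 19.9 and 33.5 FPKM in NC morulae. Its earlier values were 44.1 and 40.4 FPKM in KD and 48.3 and 41.1 FPKM in NC 8/16-cell embryos, again above all morulae. PLK1, which acts at centrosomes, kinetochores and the midzone, was at 85.5, 93.8 and 91.6 FPKM in KD morulae and 85.5, 68.8 and 77.7 FPKM in NC morulae. In 8/16-cell embryos PLK1 was at 76.3 and 100.3 FPKM with KD and at 87.7 and 95.1 FPKM with NC, and the stages overlapped in KD embryos.

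**Figure D1:**
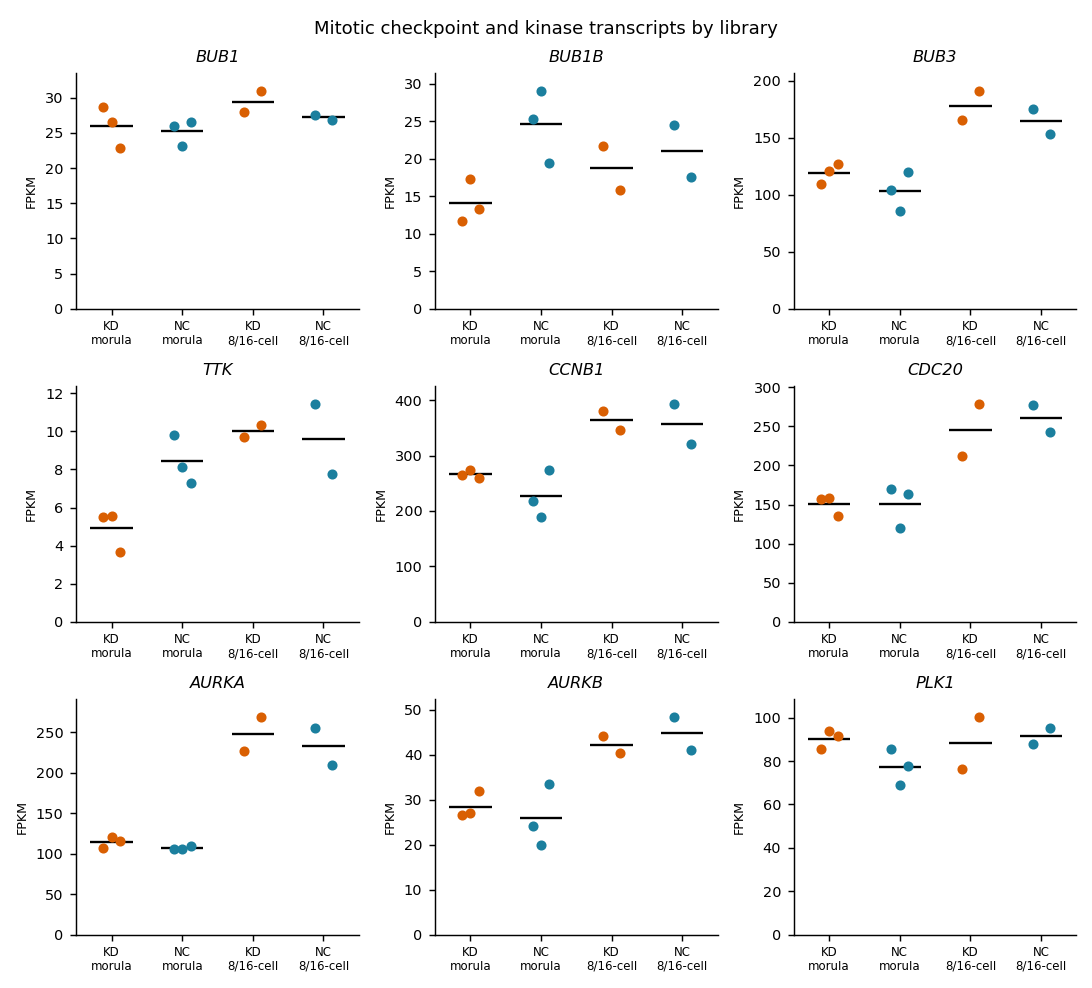
FPKM of the 9 detected genes in each library (points) with the group mean (bar), 1 panel per gene with its own axis from 0, for KD and NC morulae (3 libraries each) and KD and NC 8/16-cell embryos (2 each). BUB1B and TTK have all 3 KD morula libraries below all 3 NC morula libraries, while AURKA, AURKB, BUB3, CCNB1 and CDC20 are lower in all morulae than in all 8/16-cell embryos.

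The order of the genes by mean FPKM was similar in the 4 groups. In morulae CCNB1 and CDC20 led, followed by BUB3 and AURKA, whose libraries overlapped in both treatments, and then PLK1. In NC morulae the lowest CDC20 library also lay just below the highest BUB3 library. AURKB and BUB1 came next and also overlapped in both treatments. BUB1B followed, at 14.1 ± 2.87 FPKM in KD morulae and 24.6 ± 4.79 FPKM in NC morulae (SD, n = 3 each). Its libraries overlapped those of BUB1 in NC morulae but lay below all of them in KD morulae. TTK closed the order at 4.90 ± 1.08 FPKM in KD morulae and 8.42 ± 1.29 FPKM in NC morulae (SD, n = 3 each). That placed TTK at percentile 37.1 of all tested genes in KD morulae and 48.2 in NC morulae. In both treatments of the 8/16-cell stage AURKA and CDC20 overlapped behind CCNB1, and BUB3 came after both.

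The first comparison asked which of these transcripts differed in morulae after injection against H1FOO. None of the 9 tested genes passed in limma (0 of 9 at an adjusted p under 0.05, 2 of 9 at an unadjusted p under 0.05). Over all tested genes 0.697% passed and 21.2% had an unadjusted p under 0.05, so the share among these genes was near that of all genes. The 2 were BUB1B and TTK, both lower in KD. BUB1B in KD morulae was 0.591 times its NC level on the log2(FPKM + 1) scale, a log2 difference of -0.76 (SE 0.22, 95% interval -1.24 to -0.27, n = 3 each, adjusted p 0.0972). TTK was at 0.623 times its NC level, a log2 difference of -0.68 (SE 0.21, 95% interval -1.14 to -0.22, n = 3 each, limma adjusted p 0.107). Adding 1 to each FPKM value makes such differences smaller for low genes such as TTK. In the pairs of libraries with the same number, replicates 1, 2 and 3, BUB1B differed by -1.04, -0.71 and -0.52 and TTK by -0.73, -0.48 and -0.83, all log2 values lower in KD.

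The same-numbered morula libraries deviated together, and with that number added to the fit as a block BUB1B and TTK had adjusted p-values of 0.0183 and 0.0397 in limma, past the threshold. In that fit 2 of 9 genes passed, against 11.9% of all tested genes. It also used the numbers of the 8/16-cell libraries, which did not deviate together. With the block in morulae alone, a setting added after the data had been seen, both still passed (limma adjusted p 0.0355 for BUB1B and 0.0409 for TTK). Over 19 alternatives the BUB1B difference ranged from -0.91 to -0.41 with adjusted p-values from 0.0183 to 0.577, and the TTK difference from -0.78 to -0.35 with adjusted p-values from 0.0397 to 0.601. The smallest differences came with RN18S1 as a covariate, a setting chosen after the data had been seen. RN18S1, the 18S ribosomal RNA, was at 9053, 8553 and 11581 FPKM in KD morulae and at 2704, 2983 and 8611 FPKM in NC morulae. With it in the fit BUB1B differed by -0.41 (limma adjusted p 0.577) and TTK by -0.35 (limma adjusted p 0.601), and the part of ribosomal RNA in either difference was not tested.

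The other 7 genes had small positive differences in morulae that did not pass, and those of BUB1, CDC20 and AURKB changed sign under at least 1 alternative. BUB3 was at 119 ± 8.83 FPKM in KD and 103 ± 16.9 FPKM in NC morulae (SD, n = 3 each), a log2 difference of 0.21 with a 95% interval of -0.16 to 0.58. The BUB1 difference was 0.04, with an interval of -0.28 to 0.36. CCNB1 differed by 0.25 (-0.15 to 0.64) and CDC20 by 0.01 (-0.41 to 0.42). Among the kinases AURKA differed by 0.10 (-0.23 to 0.43), AURKB by 0.16 (-0.26 to 0.58) and PLK1 by 0.23 (-0.12 to 0.57). Their limma adjusted p-values ran from 0.431 to 0.986. PLK1 did not overlap between the treatments, but its lowest KD value exceeded its highest NC value by less than the rounding of both. In all, 3 of 9 genes did not overlap, BUB1B and TTK lower and PLK1 higher in KD, against 23.8% of all tested genes (15.3% lower and 8.44% higher). The median log2 difference of the 9 genes was 0.10, and that of all tested genes -0.08.

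**Figure D2:**
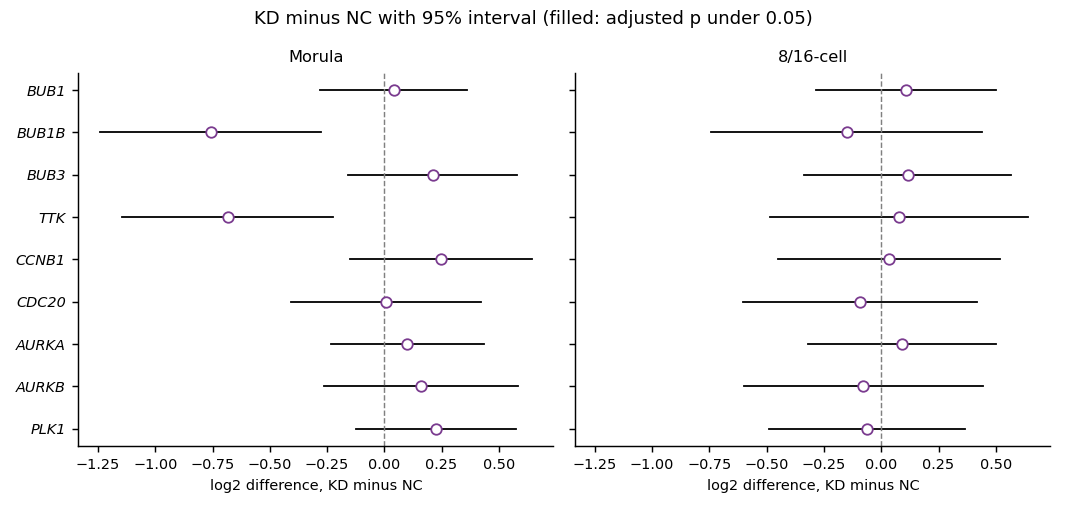
Log2 difference, KD minus NC, of each gene with its 95% interval from limma, for morulae (left, 3 libraries per treatment) and 8/16-cell embryos (right, 2 per treatment). In morulae the intervals of BUB1B and TTK lie below 0 and the other 7 include 0, at the 8/16-cell stage all 9 include 0, and no point is filled because none had an adjusted p under 0.05.

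Ratios within a library do not depend on how libraries are scaled to each other. BUB1B relative to BUB1 was 0.410, 0.650 and 0.581 in KD morulae, against 0.973, 1.25 and 0.733 in NC morulae, with all KD ratios below all NC ratios. TTK relative to BUB1 was 0.192, 0.208 and 0.160 in KD morulae, against 0.378, 0.352 and 0.274 in NC morulae, likewise without overlap. Among 8/16-cell libraries the BUB1B ratio was 0.778 and 0.513 with KD and 0.888 and 0.653 with NC, and the TTK ratio 0.347 and 0.335 with KD and 0.414 and 0.289 with NC. Both overlapped between treatments there. CDC20 relative to CCNB1 was 0.590, 0.579 and 0.522 in KD morulae and 0.780, 0.630 and 0.598 in NC morulae, a smaller separation in which the closest libraries nearly touched. These ratios were chosen after the values had been seen, and no test was made of them.

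**Figure D3:**
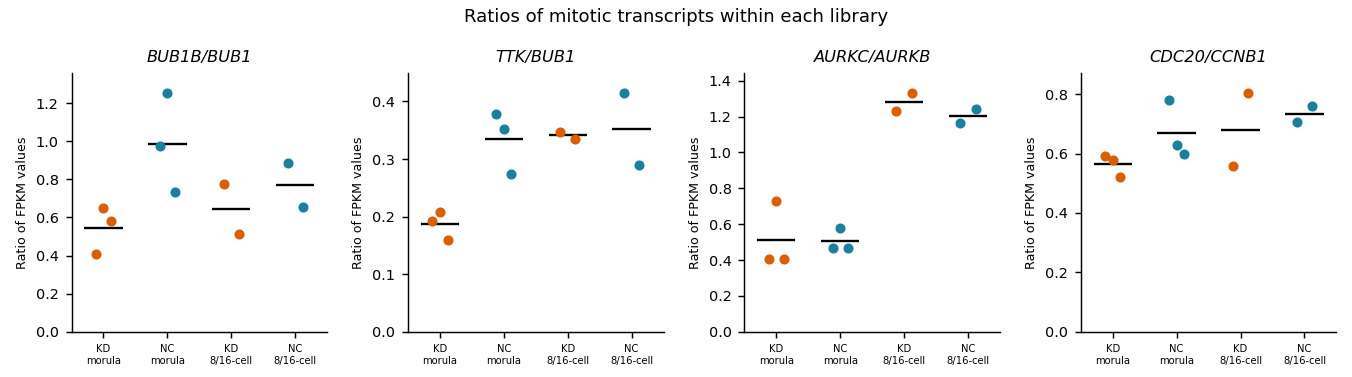
Ratios of FPKM values within each library (points) with the group mean (bar) for BUB1B to BUB1, TTK to BUB1, AURKC to AURKB and CDC20 to CCNB1, in KD and NC morulae and KD and NC 8/16-cell embryos. The first 2 ratios are lower in all KD morulae than in all NC morulae, and AURKC to AURKB is above 1 in all 8/16-cell libraries and below 1 in all morulae.

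Other measures differed among the same morulae. VIM, an intermediate filament gene of somatic cells, was at 3.44, 11.0 and 43.3 FPKM in KD morulae and at 0.346, 5.40 and 5.42 FPKM in NC morulae. CYP11A1, which makes pregnenolone in granulosa cells, was at 2.25, 7.90 and 15.4 FPKM in KD and at 0.149, 3.13 and 3.77 FPKM in NC morulae. Both overlapped between the treatments. KD replicate 3 had the highest value of both and the lowest TTK, while the lowest BUB1B was in KD replicate 1, which had the lowest VIM and CYP11A1 of the KD morulae. Of 13 tested markers of cumulus and granulosa cells 10 had a positive difference in morulae, with a median of 0.67 on the log2 scale, against -0.08 for all tested genes. This was not particular to morulae. At the 8/16-cell stage 10 of the 13 were positive too, with a median of 0.71, against 0.01 for all tested genes. Lineage markers also differed between KD and NC morulae without passing, and 3 that had an unadjusted p under 0.05 are named after their values were seen. NANOG, a pluripotency factor, was at 25.4, 39.0 and 37.8 FPKM in KD and at 6.48, 14.4 and 18.8 FPKM in NC morulae (log2 difference 1.39, limma adjusted p 0.0724). CDX2, a trophectoderm factor, was at 2.34, 1.88 and 1.23 FPKM in KD and at 11.7, 6.13 and 9.68 FPKM in NC morulae (-1.83, limma adjusted p 0.0559). GATA3, another trophectoderm factor, was at 1.09, 0.975 and 0.583 FPKM in KD and at 7.99, 2.24 and 2.48 FPKM in NC morulae (-1.32, limma adjusted p 0.103). None of the 3 overlapped between the treatments, nor did 23.8% of all tested genes. The part of other cells or of lineage state in the BUB1B and TTK differences was not tested.

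At the 8/16-cell stage the question was whether the transcripts already differed before the morula. None of the 9 genes passed in limma (0 of 9, and 0 of 9 at an unadjusted p under 0.05, the lowest being 0.559), against 0.017% and 4.37% of all tested genes. The log2 differences ran from -0.15 for BUB1B to 0.12 for BUB3, with n = 2 per treatment. The 95% interval was -0.74 to 0.44 for BUB1B and -0.49 to 0.64 for TTK, and whether these differences departed from those of morulae was tested by the interaction given next. For AURKA the difference was 0.09 (-0.32 to 0.50), for CCNB1 0.03 (-0.45 to 0.52) and for CDC20 -0.09 (-0.60 to 0.42). BUB1 was the only one of the 9 whose treatments did not overlap, at 28.0 and 30.9 FPKM with KD and 27.6 and 26.9 FPKM with NC. Over all tested genes 33.2% did not overlap, and 19.3% were higher in KD without overlap.

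The KD effect in morulae minus that in 8/16-cell embryos was tested as an interaction. It was -0.76 for TTK (SE 0.33, limma adjusted p 0.52 over all genes) and -0.61 for BUB1B (SE 0.35, limma adjusted p 0.585). None of the 9 genes passed (0 of 9 in limma, 1 of 9 at an unadjusted p under 0.05, TTK with 0.0416), against 0.017% and 9.39% of all tested genes. A difference between the stages in how BUB1B or TTK stood in KD embryos was therefore not detected with these libraries.

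The next comparison was between the stages within a treatment. In NC embryos 5 of the 9 genes fell in morulae relative to the 8/16-cell stage, namely AURKA, CDC20, AURKB, BUB3 and CCNB1, and none rose, while 18.2% of all tested genes fell and 12.6% rose. AURKA was at 107 ± 2.50 FPKM in NC morulae (SD, n = 3) and at 233 ± 32.6 FPKM in NC 8/16-cell embryos (SD, n = 2). Its log2 difference was -1.11 (SE 0.17, limma adjusted p 0.00154), which puts morulae at 0.463 times the earlier level. CDC20 and AURKB each fell by 0.79 on the log2 scale (SE 0.21 for both), with limma adjusted p-values of 0.0174 for CDC20 and 0.0190 for AURKB. BUB3 fell by 0.67 (SE 0.19, limma adjusted p 0.0209) and CCNB1 by 0.66 (SE 0.20, limma adjusted p 0.0307). Every NC morula library lay below both NC 8/16-cell libraries for 7 of the 9 genes, the 5 above with BUB1 and PLK1, against 32.6% of all tested genes with such an order.

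The remaining 4 genes did not pass between the NC stages. BUB1 differed by -0.11 (95% interval -0.47 to 0.25) and PLK1 by -0.24 (-0.63 to 0.15), both on the log2 scale as morula minus 8/16-cell. TTK differed by -0.16 (-0.67 to 0.36) and BUB1B, alone among the 9, had a positive value of 0.22 (-0.32 to 0.76). The median of the 9 log2 differences was -0.66, and that of all tested genes -0.07. AURKA passed under all 17 alternatives run. The other 4 calls rested on both NC 8/16-cell libraries. Without replicate 1 or replicate 2 of that group, or with only the NC groups in the fit, AURKA was the only one of the 9 genes that passed. Without NC morula replicate 1, 3 of 9 passed, since CCNB1 (limma adjusted p 0.0755) and AURKB (limma adjusted p 0.0533) did not. CCNB1 also failed without NC morula replicate 2 (limma adjusted p 0.0507) and with no filter on low values (0.0512).

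In KD embryos 3 of the 9 genes fell between the stages, AURKA, TTK and CDC20, against 14.8% of all tested genes. AURKA was at 115 ± 7.20 FPKM in KD morulae (SD, n = 3) and 248 ± 29.8 FPKM in KD 8/16-cell embryos (SD, n = 2), a log2 difference of -1.10 (SE 0.17, limma adjusted p 0.00308). TTK fell by 0.92 (SE 0.23, limma adjusted p 0.0218) and CDC20 by 0.69 (SE 0.21, limma adjusted p 0.0418). BUB3 (-0.58, limma adjusted p 0.0511), AURKB (-0.56, 0.0887) and CCNB1 (-0.45, 0.137) did not pass, although all their KD morula libraries lay below both KD 8/16-cell libraries. In all, 6 of 9 genes had that order, against 36.7% of all tested genes. BUB1B differed by -0.39 (95% interval -0.93 to 0.15), and BUB1 and PLK1 by -0.17 and 0.05, none of which passed.

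The median log2 difference between KD stages was -0.56 for the 9 genes and -0.18 for all tested genes. With libraries rescaled to equal sums the median over all tested genes was -0.01, so part of each difference between KD stages depends on the scaling. Under that scaling AURKA alone passed, while TTK stood at -0.74 (limma adjusted p 0.104). AURKA passed under all 17 alternatives run in KD embryos too, but CDC20 failed in 11 of them. TTK also failed without KD 8/16-cell replicate 1 (limma adjusted p 0.0902), KD 8/16-cell replicate 2 (0.116) or KD morula replicate 3 (0.0556), and with only the KD groups in the fit (0.0533). TTK passed in KD and not in NC embryos, but the difference between those changes is the interaction above, which did not pass.

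**Figure D4:**
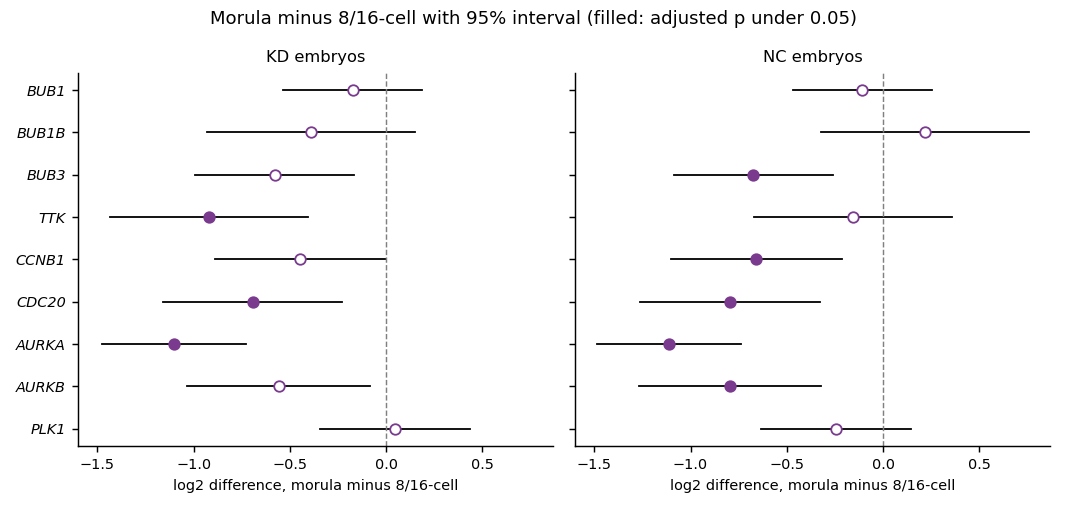
Log2 difference, morula minus 8/16-cell, of each gene with its 95% interval from limma, in KD embryos (left) and NC embryos (right), with 3 morula and 2 8/16-cell libraries per treatment. Filled points had an adjusted p under 0.05: AURKA, CDC20 and TTK in KD embryos, and AURKA, CDC20, AURKB, BUB3 and CCNB1 in NC embryos, all below 0.

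Across the 10 libraries, 5 genes had closely similar profiles: CCNB1, CDC20, AURKA, AURKB and BUB3 had Pearson correlations of 0.856 to 0.96 in their 10 pairs. All points share the difference between stages, so these are descriptions. Around the group means the same 10 pairs correlated at 0.265 to 0.881, the lowest being AURKA with AURKB. BUB1B correlated with the same 5 genes at -0.176 to 0.0683, and TTK at 0.37 to 0.654. BUB1B and TTK correlated with each other at 0.677, and BUB1B with PLK1 at -0.584. Among the 7701 genes averaging 5 FPKM or more, the profiles most like that of CCNB1 over the 10 libraries were MRPS7 (Pearson r = 0.98), PSMD9 (0.975) and RRP7A (0.973). For AURKA they were KIAA1191 (0.991), RAB2B (0.991) and ACCSL (0.99), and for BUB1 they were MED19 (0.943), SEC61A1 (0.863) and STRADA (0.853). These are likenesses of profile over 2 stages and 2 treatments, with no test.

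The wider mitotic machinery was described with 7 further lists of 144 genes, of which 133 were tested. Between the NC stages 34 of the 133 fell and 9 rose, with a median log2 difference of -0.13, against 18.2% and 12.6% of all tested genes. In KD embryos 35 fell and 3 rose (median -0.32), against 14.8% and 5.22% of all tested genes. In morulae none of the 133 passed between KD and NC (0 in limma, 29 at an unadjusted p under 0.05, a share near the 21.2% of all tested genes). Of the 133, 88 had negative and 45 positive differences with a median of -0.12, while 57.9% of all tested genes were negative with a median of -0.08. With the replicate block 14 were lower and 2 higher in KD, against 8% and 3.89% of all tested genes. Among 8/16-cell embryos none passed either (0 in limma, 5 at an unadjusted p under 0.05), against 0.017% and 4.37% of all tested genes. The median was 0.01, as over all tested genes.

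Among other spindle checkpoint proteins, 3 of 9 tested genes fell between the NC stages, against 18.2% of all tested genes. TRIP13, the ATPase that takes checkpoint complexes apart, was at 26.5, 22.3 and 30.9 FPKM in NC morulae, against 51.6 and 46.7 FPKM in NC 8/16-cell embryos (log2 difference -0.87, limma adjusted p 0.00660). KNTC1, a subunit of the RZZ complex at kinetochores, fell by 1.0 (adjusted p 0.0122), and MAD2L1BP, which with TRIP13 extracts MAD2, by 0.75 (adjusted p 0.0327), both by limma. In KD embryos TRIP13 and KNTC1 also fell. In morulae the smallest p between treatments was that of ZWILCH, the RZZ subunit that binds KNTC1. It was at 11.7, 7.15 and 6.81 FPKM in KD and 18.0, 12.6 and 14.6 FPKM in NC morulae, without overlap and without passing (log2 difference -0.77, limma adjusted p 0.106, and 0.0214 with the replicate block). Without KD morula replicate 1 ZWILCH passed (limma adjusted p 0.0439). In that fit 527 of all tested genes passed, against 82 in the reported fit. With RN18S1 as a covariate ZWILCH did not (limma adjusted p 0.541). In this list 1 of 9 genes was lower and 0 higher in KD without overlap, against 15.3% and 8.44% of all tested genes. MAD2L1BP had a positive difference (0.51, limma adjusted p 0.197). It and ZWILCH were the 2 of 9 at an unadjusted p under 0.05, against 21.2% of all tested genes.

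Kinetochore and centromere proteins went both ways between the NC stages, with 5 of 24 rising and 7 falling, against 12.6% and 18.2% of all tested genes. NSL1, of the MIS12 complex, rose by 1.07 (adjusted p 0.00234), SPC24, of the NDC80 complex, by 1.2 (adjusted p 0.00668) and CENPF, a large protein of the outer kinetochore, by 1.10 (adjusted p 0.00794), while SKA3, of the SKA complex on microtubules, fell by 0.74 (adjusted p 0.0227), all in limma. In morulae 19 of the 24 had negative KD minus NC differences, with a median of -0.25, against 57.9% negative and a median of -0.08 over all tested genes. None passed (0 of 24 in limma, 7 at an unadjusted p under 0.05, against 21.2% of all tested genes). CENPA, the histone H3 variant of centromeres, was at 35.6, 36.0 and 29.8 FPKM in KD and 53.6, 45.5 and 59.0 FPKM in NC morulae. Its log2 difference was -0.62 (limma adjusted p 0.0724, and 0.0328 with the replicate block). CENPI, of the constitutive centromere complex, was at 9.04, 7.94 and 6.73 FPKM in KD and 12.9, 14.1 and 13.3 FPKM in NC morulae (-0.71, limma adjusted p 0.0624, and 0.0243 with the block). Neither gene overlapped between the treatments, but both were named for a small p in this comparison. In the list 7 of 24 genes were lower and 0 higher in KD without overlap, against 15.3% and 8.44% of all tested genes. Without KD morula replicate 1 CENPI passed (limma adjusted p 0.0433). That fit called 527 of all tested genes, against 82 in the reported fit. With RN18S1 as a covariate neither CENPA nor CENPI passed (limma adjusted p 0.384 and 0.378).

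In the anaphase-promoting complex and its regulators, 3 of 19 genes fell and none rose between the NC stages, a share of falls near the 18.2% of all tested genes. UBE2C, its ubiquitin-conjugating enzyme, fell by 1.06, ESPL1, the separase that cuts cohesin, by 0.67, and FBXO5, an inhibitor of the complex, by 0.55, with limma adjusted p-values of 0.00483, 0.0165 and 0.0403. None of the 3 is a core subunit of the complex. The subunit genes ANAPC13 (-0.84, limma adjusted p 0.129) and CDC16 (-0.44, 0.150) had negative KD minus NC differences in morulae that did not pass. For ANAPC13 in morulae the limma adjusted p-value was 0.0266 with the replicate block and 0.507 with RN18S1 as a covariate. Of the 19 genes 11 were negative there and 8 positive, UBE2C, ESPL1 and FBXO5 among the positive ones. That share was near the 57.9% negative over all tested genes. None passed (0 of 19 in limma, 4 at an unadjusted p under 0.05, against 21.2% of all tested genes). Of the genes controlling the mitotic cyclin-dependent kinase, 7 of 20 fell between the NC stages and none rose, again against 18.2% falling over all tested genes. CKS2, which binds CDK1 and aids its substrate choice, was at 311, 258 and 349 FPKM in NC morulae and 894 and 799 FPKM in NC 8/16-cell embryos (-1.47, limma adjusted p 0.00115). CCNA2, cyclin A2, fell by 0.81 (adjusted p 0.0119) and FOXM1, a transcription factor of mitotic genes, by 0.70 (adjusted p 0.0149), again in limma. In KD morulae CKS2 was at 394, 431 and 509 FPKM, above every NC morula library. That log2 difference of 0.54 did not pass (limma adjusted p 0.142, 0.026 with the replicate block and 0.559 with RN18S1 as a covariate). Of the 20 genes 14 had negative and 6 positive KD minus NC differences in morulae, while 57.9% of all tested genes were negative. None passed (0 of 20 in limma, 4 at an unadjusted p under 0.05, against 21.2% of all tested genes). Without overlap 2 were higher and 3 lower in KD, against 8.44% and 15.3% of all tested genes.

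Among partners and relatives of the described kinases 5 of 17 genes fell and 1 rose in NC embryos, against 18.2% and 12.6% of all tested genes. CDCA8, the borealin subunit that works with AURKB, was at 45.9, 43.1 and 60.6 FPKM in NC morulae and 238 and 226 FPKM in NC 8/16-cell embryos (-2.21, limma adjusted p 0.000472). AURKC, the Aurora kinase of oocytes and germ cells, was at 11.3, 11.6 and 15.6 FPKM in NC morulae and 56.3 and 51.1 FPKM in NC 8/16-cell embryos (-2.0, limma adjusted p 0.000522). AURKC relative to AURKB was 0.404, 0.727 and 0.407 in KD morulae and 0.468, 0.581 and 0.466 in NC morulae, against 1.23 and 1.33 in KD and 1.17 and 1.24 in NC 8/16-cell embryos. How reads shared by these related genes were counted is not given in the sources used here. PLK3, a relative of PLK1 linked to stress responses, fell by 1.91 (limma adjusted p 0.00104). PLK2, another relative, was at 33.7, 46.3 and 47.1 FPKM in KD morulae, against 16.2, 24.7 and 23.7 FPKM in NC morulae. The treatments did not overlap, and the difference of 0.95 did not pass (limma adjusted p 0.0617). The adjusted p-value was 0.00495 with the replicate block and 0.3545 with RN18S1 as a covariate, both in limma. In this list 1 of 17 genes was higher and 3 lower in KD without overlap, against 8.44% and 15.3% of all tested genes. PLK2 passed without KD morula replicate 1 (limma adjusted p 0.0313), where 527 of all tested genes passed against 82 in the reported fit. CDCA8 was also higher in KD morulae (0.59, limma adjusted p 0.18). The list genes NEK7 (-0.73, 0.072) and BORA (-0.63, 0.108) were lower, and none of these passed. In all, 4 of 17 had an unadjusted p under 0.05, against 21.2% of all tested genes.

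Spindle motors and midzone proteins had 6 of 22 genes falling and none rising between the NC stages, against 18.2% falling over all tested genes. TACC3, which AURKA places on spindle microtubules, fell by 1.65 (adjusted p 0.00131), KIF18A, a kinesin that aligns chromosomes, by 1.07 (adjusted p 0.00240) and PRC1, which bundles midzone microtubules, also by 1.07 (adjusted p 0.00660), all in limma. None of the spindle genes passed between KD and NC morulae (0 of 22 in limma). Of the 22, 4 had an unadjusted p under 0.05, against 21.2% of all tested genes. Negative differences numbered 15 and positive ones 7, while 57.9% of all tested genes were negative. KIF18B was higher in KD (0.55, limma adjusted p 0.105). HMMR (-0.52, 0.084), KIF15 (-0.72, 0.172) and DLGAP5 (-0.44, 0.216) were lower. Condensin and cohesin genes had 3 of 22 rising and 3 falling between the NC stages, shares near those of all tested genes (12.6% and 18.2%). SMC1B and STAG3, cohesin subunits of meiosis, fell by 1.89 and 1.16 (limma adjusted p 0.00121 and 0.00905), while SMC2, of condensin, and PDS5A, a cohesin regulator, rose by 0.61 and 0.69 (limma adjusted p 0.0288 and 0.0240). In morulae SMC3, a core subunit of cohesin, was at 13.7, 14.2 and 9.89 FPKM in KD and 22.04, 38.6 and 19.7 FPKM in NC, without overlap. Its difference of -0.98 did not pass (limma adjusted p 0.0722, 0.0108 with the replicate block and 0.472 with RN18S1 as a covariate). Of the 22 condensin and cohesin genes 5 were lower and 1 higher in KD without overlap, against 15.3% and 8.44% of all tested genes.

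As with the 9 genes, many of these stage calls rested on both NC 8/16-cell libraries. NSL1, UBE2C, CKS2, CDCA8, AURKC, PLK3, TACC3 and KIF18A passed between the NC stages under all 17 alternatives run, and SMC1B under the 16 in which it was tested. Without NC 8/16-cell replicate 1, the named genes TRIP13, CENPF and PRC1 did not pass (limma adjusted p 0.0649, 0.0711 and 0.0547), and without NC 8/16-cell replicate 2 SPC24 did not (0.0790). KNTC1, MAD2L1BP, ESPL1, FBXO5, CCNA2, FOXM1, STAG3, SMC2 and PDS5A did not pass when either of these libraries was left out, and SKA3 failed without replicate 1 (limma adjusted p 0.214). With equal sums FBXO5 (limma adjusted p 0.0625), FOXM1 (0.0563), SMC2 (0.0891) and PDS5A (0.0711) failed too. FBXO5, failed in 10 of 17 alternatives, quantile normalization (0.0538) among them.

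**Figure D5:**
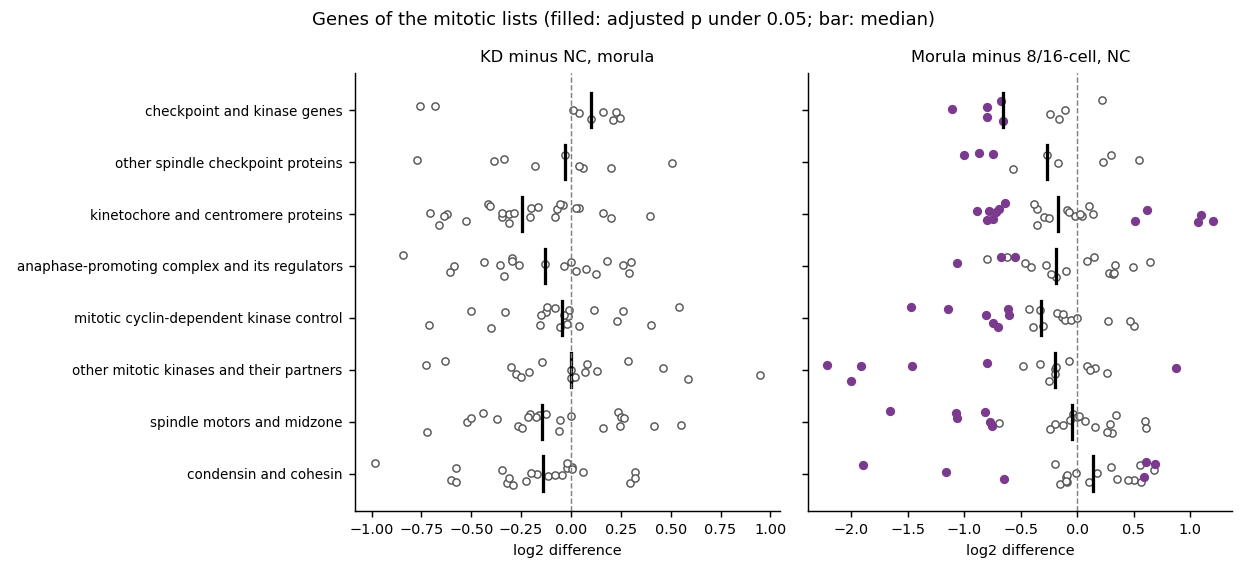
Log2 differences of single tested genes (points) with the list median (bar) for the 9 tested genes described here and the 7 further mitotic lists, as KD minus NC in morulae (left) and as morula minus 8/16-cell in NC embryos (right). Filled points had an adjusted p under 0.05; there are none in the left panel, and in the right panel 5 of the 9 genes and 43 of the 133 list genes are filled.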

How the data were processed

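Poly(A) RNA of 10 libraries was measured: KD and NC morulae (3 each) and KD and NC 8/16-cell embryos (2 each). RNA was isolated with a Picopure kit, taken up on oligo(dT) beads and made into libraries with an NEBNext Ultra kit and PCR, per the labels' protocols. Whether strand was kept is not stated, and antisense reads may be counted with a gene. Per the submitters' processing notes, the tools were Cufflinks, featureCounts, HISAT2 and Trimmomatic, with bosTau9 and ARS-UCD1.2 named as builds and no versions or order given. The deposited values are FPKM, made by the authors. Fragment counts were not analysed here, so the depth of each library is unknown. FPKM summed to between 345464 and 669836 in a library.

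Of 39911 lines, the 11211 lines of 81 repeated symbols were left out, and 0 columns were unmatched. FPKM were transformed to log2(FPKM + 1), and of 28700 genes the 11761 averaging 1 FPKM or more were tested with limma 3.58.1 (limma-trend, R 4.3.3) as 4 group means over all 10 libraries, with 6 residual and 4.63 prior degrees of freedom. Benjamini-Hochberg adjustment of two-sided p-values ran over all tested genes, with a threshold of 0.05. They measure only the spread between these libraries, which may be technical. The procedure was tested on simulated data for KD against NC morulae. It recovered 49 of 100 genes changed by 1 on the log2 scale and 92 of 100 changed by 2, with 3 false calls. Many differences below 1 can therefore be missed. The changed genes were drawn from those averaging 5 FPKM or more, and the noise was independent between libraries. Libraries that deviate together were not simulated, so the false calls do not measure that case, nor the recovery that of lower genes.

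The described genes and the lists were chosen with earlier results of these data known. The 7 further mitotic lists covered other spindle checkpoint proteins, kinetochore and centromere proteins, the anaphase-promoting complex, cyclin-dependent kinase control, other mitotic kinases and partners, spindle motors and midzone, and condensin and cohesin. Named were all 10 genes, up to 4 genes of each further list by smallest p in KD minus NC at the morula stage and up to 4 in morula minus 8/16-cell in NC, the 3 profiles most like CCNB1, BUB1 and AURKA, and H1FOO, VIM, CYP11A1 and POU5F1. Some of these are left without values in the text. RN18S1, FSHR, SERPINE2, NANOG, CDX2 and GATA3 are named outside this rule, after their values were seen.

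The labels number KD and NC replicates alike. In morulae, KD and NC libraries of 1 number deviated together from their groups' means over all tested genes (r = 0.37, 0.325 and 0.312), so the numbers were taken to pair these libraries. Among 8/16-cell libraries the correlation was 0.0558, which gives no ground for pairing. The block as planned nevertheless used the number within each stage for KD against NC, and across both stages for morula against 8/16-cell, so a block in morulae alone was added after the data had been seen. Alternatives were other filters, an added 0.1 in place of 1, equal sums of FPKM (without MIR2887-1, MIR2887-2 and RN18S1, which reach very high FPKM in some libraries), quantile normalization, the replicate block, only the groups compared, each library left out, and RN18S1 as a covariate. Promoter and protein sequences were not used here, and no coordinates are given.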

Additional observations from a re-analysis of the deposited data

How the results depend on the processing

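The cause of the changes listed here was not tested, except where a setting leaves fewer libraries or genes. In KD against NC morulae 82 of all tested genes passed in the reported fit. The number was 6 with no filter on low values, 139 with a filter at a mean of 5 FPKM and 9 with equal sums (MIR2887-1, MIR2887-2 and RN18S1 left out of the sum). It was 0 with only the groups compared (limma, 2131 at an unadjusted p under 0.05) and 0 with RN18S1 as a covariate (limma, 1243 unadjusted), and 0 to 527 when 1 library was left out, 0 without KD 8/16-cell replicate 1 and 527 without KD morula replicate 1. With the replicate block, in which same-numbered libraries are paired, 1398 genes passed, and 2 of the 9 described genes, BUB1B and TTK. With the block in morulae alone, added after the data had been seen, 1224 genes and the same 2 passed. In the other comparisons the block gave 32 genes in place of 2 for the interaction and 6 of 9 described genes in place of 3 between KD stages, BUB3, AURKB and CCNB1 being gained. That last fit joins libraries of different stages that share only a number, and no pairing was found for 8/16-cell libraries, where H1FOO passed with the block (limma adjusted p 0.0107), so these gains rest on no shown pairing. The block changed no other call of the 9 genes. In KD against NC at the 8/16-cell stage, 2 genes passed, against 11 with no filter, 1 with only the groups compared, 4 with the covariate and 2 to 9 with 1 library left out. Leaving out 1 library gave 2 to 6 genes for the interaction. Between NC stages it gave 1406 to 3657 genes and 1 to 5 described genes, and between KD stages 693 to 2698 genes and 1 to 5 described genes. With only the groups compared, 1 described gene passed between NC stages and 1 between KD stages. Equal sums gave 1339 genes and 1 described gene between KD stages.

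Reversed signs concerned differences that had not passed. With the covariate, KD minus NC in morulae was -0.0562 for AURKB and 0.0020 for ZW10. In 8/16-cell embryos equal sums gave -0.0073 for BUB1, -0.0021 for BUB3, -0.0285 for TTK, -0.0849 for CCNB1 and -0.0277 for AURKA, and quantile normalization gave -0.14 for CCNB1 and -0.0016 for AURKA. For BUB1 the interaction was 0.12 with equal sums and 0.0975 with quantile normalization, and the difference between KD stages was 0.0249 and 0.0215 under the same settings. With 1 library left out, KD minus NC in morulae ran from -0.0290 to 0.13 for BUB1, from -0.15 to 0.10 for CDC20 and from -0.0037 to 0.36 for AURKB. In 8/16-cell embryos it ran from -0.38 to 0.0784 for BUB1B, -0.17 to 0.33 for TTK, -0.11 to 0.18 for CCNB1, -0.29 to 0.10 for CDC20, -0.0516 to 0.23 for AURKA, -0.19 to 0.0363 for AURKB and -0.26 to 0.13 for PLK1. The interaction ran from -0.14 to 0.0219 for BUB1, -0.0286 to 0.21 for BUB3, -0.0927 to 0.29 for CDC20 and -0.13 to 0.15 for AURKA. Between NC stages BUB1B ran from -0.0124 to 0.45 and TTK from -0.41 to 0.0938, and between KD stages PLK1 from -0.15 to 0.24. Absolute depth is unknown, so no limit from counting error can be given.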
